A study of Mus musculus with 20 samples.

Results

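Xenobiotic-metabolizing enzymes of the P450, UDP-glucuronosyltransferase (UGT), glutathione S-transferase (GST) and sulfotransferase (SULT) families were followed in mouse intestinal RNA. The members were the rows of the expression table whose symbol begins with Cyp1, Cyp2 or Cyp3 and a subfamily letter, Ugt1a, Ugt2a, Ugt2b, Gsta, Gstm, Gstp, Gstt, Gstk, Gsto or Sult and a number. They were kept where they had at least 1 RPKM (reads scaled by gene length and by the mapped reads of the library) in at least 6 of 20 libraries. Of 122 matching rows among 24795 genes, 52 were kept: 19 of 62 P450 rows, 8 of 18 UGT rows, 19 of 21 GST rows and 6 of 21 SULT rows. The members were thus selected on their measured level, and levels are given as a description. No member reached 1 RPKM in libraries of 1 group only. Sult4a1 and Cyp2c66 reached it in 0 control Apc Min libraries, and Cyp2d9 and Cyp2d40 in 0 WT libraries. These members passed through the groups where they were high, so a call in that direction leans on the value rule.

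Libraries came from 3 groups. The first held 6 Apc Min libraries given DM-aKG, the cell-permeable dimethyl ester of alpha-ketoglutarate, a mitochondrial metabolite and cosubstrate of dioxygenases. The second held 7 Apc Min libraries given a control treatment, and the third 7 untreated wild-type (WT) libraries. Apc Min mice carry a nonsense allele of the tumour suppressor Apc, whose loss activates Wnt signalling, and they form intestinal adenomas. The titles of the samples name tissue, whereas other label fields name cultured intestinal organoids, primary cells, an in vitro source and a medium low in glutamine for all 20 libraries. Genes of cells outside the epithelium were present in all 20, with Myh11 of smooth muscle at 36.8 to 213 RPKM. Jchain of plasma cells was at 34.4 to 689 RPKM, and the source was not tested further. The labels give neither the dose and duration of DM-aKG nor the age, sex and strain of the mice, and they do not say whether replicates were separate animals. P-values therefore measure the spread between these libraries.

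These families act in sequence on drugs, plant compounds, bile acids and hormones. P450 enzymes oxidize their substrates, and GST, UGT and SULT enzymes couple the products to glutathione, glucuronic acid or sulfate so that transporters can carry them out of the cell. The epithelium of the small intestine is the first tissue that swallowed compounds meet. Several of the genes are known targets of nuclear receptors, of the aryl hydrocarbon receptor (AhR) or of the transcription factor Nrf2, which binds antioxidant response elements.

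Summed RPKM was 277634 to 369409 per library, and the members held 0.360 to 0.760% of it. Of the 12 smooth muscle genes listed, 12 were higher in DM-aKG than in control Apc Min libraries and 12 were lower in control Apc Min than in WT libraries. Their summed level was 1052 to 1806 RPKM in DM-aKG, 455 to 1534 RPKM in control Apc Min and 1172 to 2004 RPKM in WT libraries. Of 8 pan-epithelial genes, 1 was higher and 6 were lower with DM-aKG. Epcam, a gene of epithelia in general, was at 506 to 722 RPKM in DM-aKG, 696 to 978 RPKM in control Apc Min and 810.5 to 1090.4 RPKM in WT libraries. The labelled intestinal origin was met by Fabp6, a gene of the ileum. It was at 931 to 6010 RPKM in DM-aKG, 684 to 5023 RPKM in control Apc Min and 158 to 9728 RPKM in WT libraries. Lct, the lactase gene of proximal enterocytes, was under 4 RPKM in 5 of 6 DM-aKG, 7 of 7 control Apc Min and 2 of 7 WT libraries. The exceptions were DM-aKG replicate 6, at 195 RPKM, and WT replicates 1, 3, 5, 6 and 7, whose values ran over 32.6 to 229 RPKM. In such bulk libraries, fewer cells of a type and less RNA per cell cannot be told apart.

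With DM-aKG, 11 of the 52 members were higher and 5 were lower than in control Apc Min libraries, at an adjusted p under 0.05 in a limma fit over 12433 genes. That is 21.2% and 9.62% of the members. Among all genes tested, 5.91% were higher and 27.6% were lower. The lower members were Cyp1b1, Gsta1, Gsta4, Gstm5 and Gstm7. The higher ones were 5 UGT genes (Ugt1a7c, Ugt2b5, Ugt2b34, Ugt2b35 and Ugt2b36), the theta-class GST genes Gstt1 and Gstt3, the SULT genes Sult1a1 and Sult4a1, and the P450 genes Cyp2d22 and Cyp3a25. The median log2 change of the members was 0.38, against -0.14 over all genes. RPKM values carry such a shift of all genes between groups, and quantile normalization, which removes it, gave 20 higher and 5 lower members beside 1750 higher and 1849 lower genes in all. With a smooth muscle covariate 1 member was higher and 5 were lower, beside 1.76% and 18.7% of all genes, and the median log2 change of the members was 0.25. The higher members became 6 without DM-aKG replicate 1 or 4, and 7 without DM-aKG replicate 6 or control Apc Min replicate 5. In those fits 4.6 to 5.36% of all genes were higher.

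Control Apc Min libraries had 11 members higher and 15 lower than WT libraries, 21.2% and 28.8% of the members. Among all genes, 43.2% were higher and 15.7% were lower, or 3239 and 3348 genes after quantile normalization in place of 5368 and 1948. DM-aKG Apc Min libraries had 11 members higher and 7 lower than WT libraries, 21.2% and 13.5%, beside 21.9% and 17.3% of all genes. Median-of-ratios scaling gave 9 higher and 9 lower members in that comparison, beside 18.2% and 22.4% of all genes. Without DM-aKG replicate 2 the 7 lower members became 4, and 15.1% of all genes were lower. The median log2 change of the members was -0.04 in control Apc Min against WT, with 0.20 over all genes, and 0.20 in DM-aKG Apc Min against WT, with 0.05 over all genes. The 3 comparisons share libraries, so the values of each are given side by side and no overlap between them is read.

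**Figure D1:**
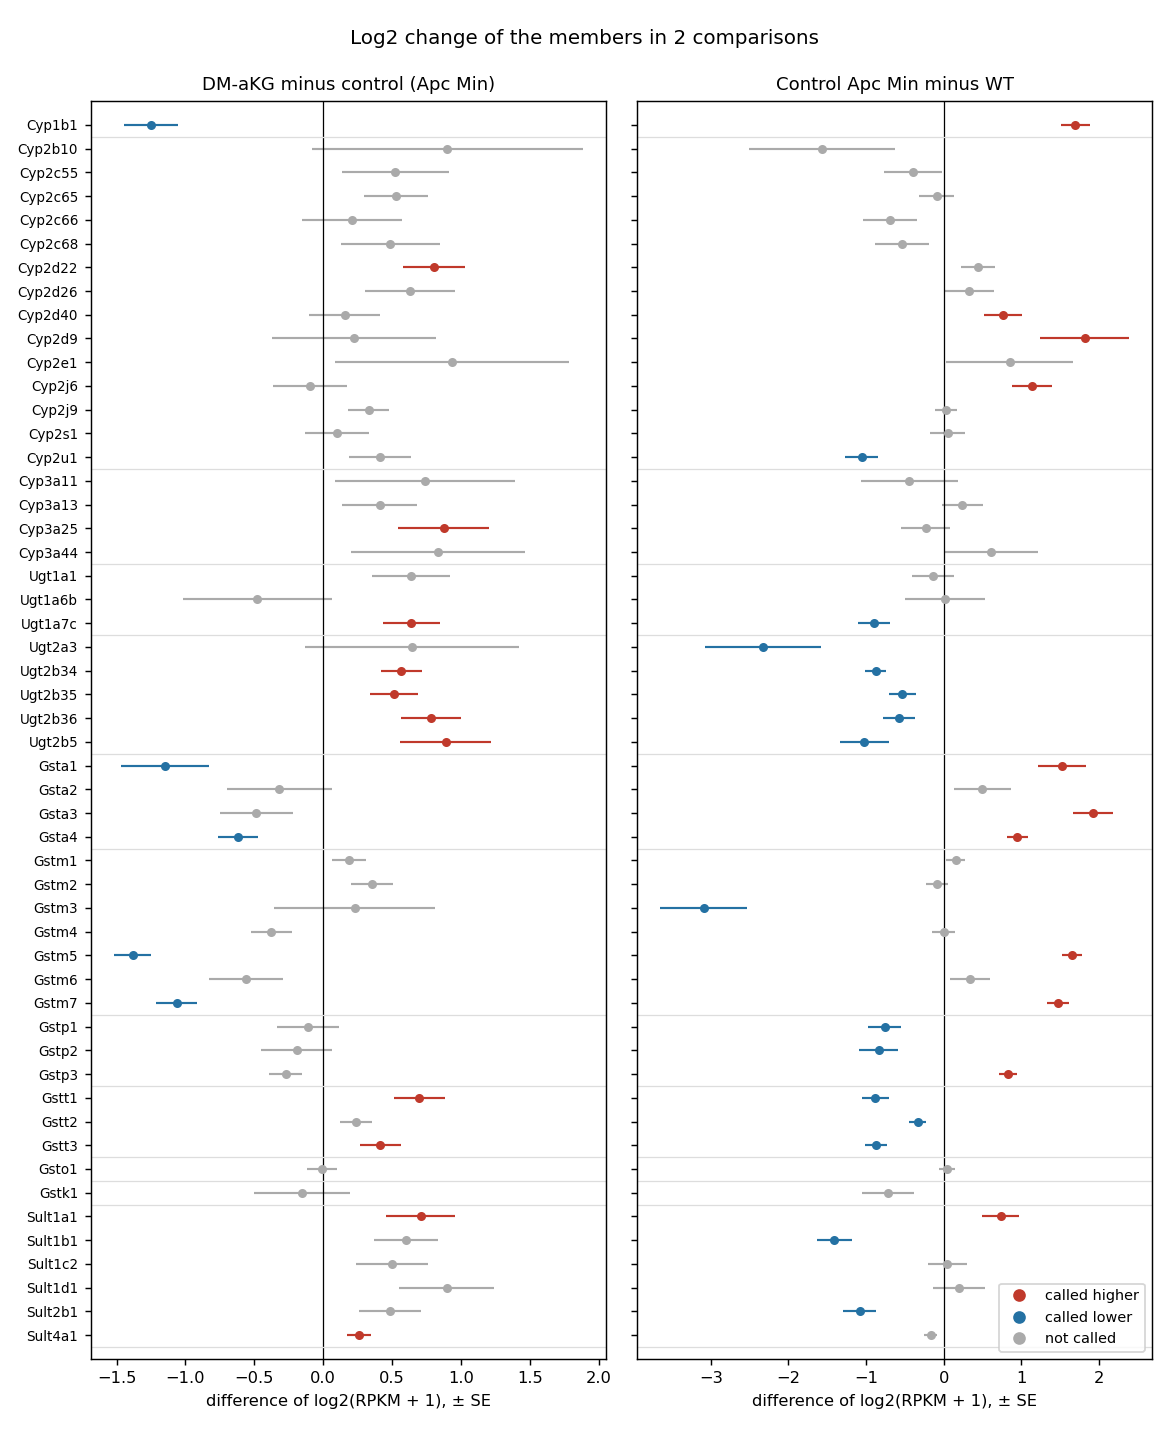
Log2 change of the 52 members, by family, in DM-aKG against control Apc Min libraries (left) and in control Apc Min against WT libraries (right). The x axes give the difference of log2(RPKM + 1), points are limma estimates and bars are ± 1 SE. Red points were called higher and blue points lower; 11 were higher and 5 lower at left, and 11 higher and 15 lower at right.

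Among the P450 members, Cyp1b1 was the only Cyp1 gene that was kept. It oxidizes polycyclic aromatic hydrocarbons and oestrogens and is a known AhR target. Cyp1b1 had 2.01, 2.67 and 4.25 RPKM in DM-aKG libraries (lowest, median and highest library), 4.86, 7.79 and 14.1 RPKM in control Apc Min libraries and 1.44, 1.84 and 2.28 RPKM in WT libraries. Every control Apc Min library lay above every DM-aKG and every WT library. The mean was 2.97 ± 0.859 RPKM in DM-aKG libraries and 8.85 ± 3.68 RPKM in control Apc Min libraries (SD, n = 6 and 7), a log2 change of -1.25 (SE 0.19, limma adjusted p = 5.85e-05). The change in control Apc Min against WT was 1.70 (SE 0.19, limma adjusted p = 2.92e-07), and in DM-aKG Apc Min against WT it was 0.44 (SE 0.19, limma adjusted p = 0.0746). Relative to the median shift of all genes, the first of these was -1.11. Cyp1a1 and Cyp1a2, the other Cyp1 genes and textbook AhR targets, did not exceed 0.169 RPKM in any library.

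In the Gstm cluster on chromosome 3, Gstm5 and Gstm7, mu-class GST genes, had the pattern of high values in control Apc Min libraries. Gstm5 had 7.05, 9.39 and 16.2 RPKM in DM-aKG libraries, 24.0, 27.8 and 37.6 RPKM in control Apc Min libraries and 7.55, 8.09 and 9.06 RPKM in WT libraries. Control Apc Min libraries did not overlap with either of the other groups, whose ranges overlapped with each other. With a log2 change of -1.38 (SE 0.13, limma adjusted p = 2.1e-07), Gstm5 had the largest absolute change of the 52 members with DM-aKG. In control Apc Min against WT its change was 1.65 (SE 0.13, limma adjusted p = 3.35e-09), and in DM-aKG Apc Min against WT 0.27 (SE 0.13, limma adjusted p = 0.117). Gstm7 had 1.34, 2.27 and 2.95 RPKM in DM-aKG libraries, 3.52, 5.77 and 7.97 RPKM in control Apc Min libraries and 1.07, 1.43 and 2.06 RPKM in WT libraries. Here too the control Apc Min libraries stood apart from both other groups. Its log2 change was -1.06 with DM-aKG (SE 0.15, limma adjusted p = 1.78e-05), 1.48 in control Apc Min against WT (SE 0.14, limma adjusted p = 5.24e-08) and 0.41 in DM-aKG Apc Min against WT (SE 0.15, limma adjusted p = 0.0328). The last call was lost when any of DM-aKG replicates 1, 3 and 6 or WT replicates 2, 4 and 5 was left out (up to 0.0789). Cyp1b1, Gstm5 and Gstm7 were the members called in DM-aKG against control under every alternative that was run, and none of their transcripts shares a stretch of 50 bases with another gene.

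The promoters of these 3 genes are shown because their calls held under every alternative. The sequences are RefSeq's on GRCm38.p6, from 250 bases before the start site to 50 after it, in the direction of transcription. Capitals mark matches, on either strand, to the xenobiotic response element core GCGTG, which the AhR binds, and to the antioxidant response element core TGACNNNGC. Cyp1b1 lies at chr17:79715012-79715311 (minus strand), Gstm5 at chr3:107895604-107895903 (plus strand) and Gstm7 at chr3:107931565-107931864 (minus strand, 1 of its start sites in RefSeq).
Cyp1b1: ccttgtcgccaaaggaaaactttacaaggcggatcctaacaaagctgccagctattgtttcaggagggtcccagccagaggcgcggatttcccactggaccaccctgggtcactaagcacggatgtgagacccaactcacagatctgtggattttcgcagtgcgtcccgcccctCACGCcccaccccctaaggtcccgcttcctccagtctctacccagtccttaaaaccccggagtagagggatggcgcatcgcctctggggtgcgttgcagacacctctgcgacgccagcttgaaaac
Gstm5: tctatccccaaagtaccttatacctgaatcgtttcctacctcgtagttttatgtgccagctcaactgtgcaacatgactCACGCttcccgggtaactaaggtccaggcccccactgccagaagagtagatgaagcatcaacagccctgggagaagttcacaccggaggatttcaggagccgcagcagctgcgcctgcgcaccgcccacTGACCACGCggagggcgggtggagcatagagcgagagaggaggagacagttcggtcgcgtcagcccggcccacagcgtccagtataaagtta
Gstm7: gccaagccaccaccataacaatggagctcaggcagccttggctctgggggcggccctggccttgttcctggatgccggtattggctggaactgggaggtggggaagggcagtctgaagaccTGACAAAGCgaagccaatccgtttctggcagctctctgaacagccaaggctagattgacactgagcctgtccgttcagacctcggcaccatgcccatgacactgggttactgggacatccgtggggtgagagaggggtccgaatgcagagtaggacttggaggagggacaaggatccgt
Cyp1b1 holds 1 GCGTG match, on the reverse strand, whose first base lies at -76 from the start site. Gstm5 holds 2 GCGTG matches and 1 TGACNNNGC match at -42, and the match at -42 overlaps with the GCGTG match at -38. Gstm7 holds 1 TGACNNNGC match at -129, and the other Gstm7 promoter in RefSeq, at chr3:107931768-107932067, holds no match to any motif searched. Of 32851 mouse promoters of the same length, 12.4% hold TGACNNNGC and 32.4% hold GCGTG. Of 55 promoters of the 46 members with a RefSeq promoter, 6 hold the first and 15 the second. A match describes these letters and is not evidence of binding.

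Of the 7 mu-class members, the other 5 were not called with DM-aKG. Gstm1, the most abundant of them, had 30.3, 39.1 and 45.4 RPKM in DM-aKG, 26.6, 32.8 and 47.3 RPKM in control Apc Min and 24.9, 30.7 and 35.8 RPKM in WT libraries. All ranges of Gstm1 overlapped, and 23.1% of its 50-base stretches occur in other genes. Its log2 change was 0.19 with DM-aKG (SE 0.12, limma adjusted p = 0.249) and 0.34 in DM-aKG Apc Min against WT (SE 0.12, limma adjusted p = 0.0338). That call was lost when any of DM-aKG replicates 3, 4 and 5 or WT replicates 2, 4 and 5 was left out, with values of up to 0.0789. Gstm3 had its high values in WT, with 0.0671, 1.50 and 8.34 RPKM in DM-aKG, 0.379, 1.40 and 3.50 RPKM in control Apc Min and 3.47, 33.5 and 40.9 RPKM in WT libraries. The WT libraries fell into 2 levels, with 3.47 and 4.26 RPKM in replicates 2 and 4 and 25.9 to 40.9 RPKM in the other libraries. Of the 50-base stretches of Gstm3, 28.8% occur in other genes. Gstm3 was lower in control Apc Min than in WT by a log2 change of -3.09 (SE 0.56, limma adjusted p = 0.000118) and in DM-aKG Apc Min than in WT by -2.86 (SE 0.58, limma adjusted p = 0.000996). Over libraries under 4 RPKM of Lct, of which 2 were WT, these were -1.01 (adjusted p = 0.136) and -1.13 (adjusted p = 0.163). With the Lct covariate 1 of the 7 mu-class members was called lower in each comparison with WT, as in the main fit. Of all genes, 11.4% and 12.5% were lower with that covariate. Gstm2, Gstm4 and Gstm6 were called in none of the 3 comparisons. Gstm4 averaged 1.58 ± 0.497 RPKM in DM-aKG and 2.35 ± 0.674 RPKM in control Apc Min libraries (SD, n = 6 and 7; log2 change -0.38, limma adjusted p = 0.0568). It was called lower with DM-aKG under the smooth muscle covariate (adjusted p = 0.0181), in replicates 1 to 4 (0.0298), with the Lct covariate (0.0338) and over low-Lct libraries (0.0492). Gstm6 averaged 3.05 ± 1.24 RPKM in DM-aKG and 4.83 ± 1.29 RPKM in control Apc Min libraries (log2 change -0.56, limma adjusted p = 0.114) and was called lower under both Lct alternatives (adjusted p = 0.00179 and 0.023). Whether these genes differ from Gstm5 and Gstm7 in their change was not tested.

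Alpha-class GST genes were mostly high in control Apc Min libraries. Gsta1 had 27.6, 52.0 and 75.3 RPKM in DM-aKG, 54.0, 98.7 and 243 RPKM in control Apc Min and 19.6, 42.0 and 60.6 RPKM in WT libraries. Its highest DM-aKG and WT libraries reached into the control range, and control replicates 3 and 5 stood above 200 RPKM. The log2 change of Gsta1 was -1.15 with DM-aKG (SE 0.32, limma adjusted p = 0.00922) and 1.53 in control Apc Min against WT (SE 0.31, limma adjusted p = 0.000295). With the smooth muscle covariate it was -0.37 (adjusted p = 0.493) and 0.62 (adjusted p = 0.226). Of the 50-base stretches of Gsta1, 89.7% occur in other genes, most in Gm3776, so its level is uncertain. Gsta4, which conjugates the lipid peroxidation product hydroxynonenal and shares no such stretch, had 16.0, 17.8 and 26.6 RPKM in DM-aKG, 24.5, 28.7 and 34.0 RPKM in control Apc Min and 9.80, 16.9 and 18.3 RPKM in WT libraries. DM-aKG replicate 1 was the only DM-aKG library within the control range. Gsta4 changed by -0.62 with DM-aKG (SE 0.14, limma adjusted p = 0.00249) and by 0.95 in control Apc Min against WT (SE 0.14, limma adjusted p = 8.93e-06).

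Gsta3, whose product detoxifies aflatoxin epoxide in mice, differed from WT in both Apc Min groups. It had 5.24, 9.56 and 15.0 RPKM in DM-aKG, 6.96, 12.8 and 24.0 RPKM in control Apc Min and 1.61, 2.76 and 4.72 RPKM in WT libraries. No WT library reached the lowest Apc Min library of either treatment. The log2 change was 1.92 in control Apc Min against WT (SE 0.25, limma adjusted p = 3.13e-06), 1.44 in DM-aKG Apc Min against WT (SE 0.27, limma adjusted p = 0.00041) and -0.49 with DM-aKG (SE 0.27, limma adjusted p = 0.165). Gsta2 was called in none of the comparisons.

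The pi-class genes split. Gstp1 had 70.1, 158 and 197 RPKM in DM-aKG, 96.0, 145 and 195 RPKM in control Apc Min and 194, 237 and 319.8 RPKM in WT libraries. The WT libraries barely met the highest Apc Min libraries. Gstp1 was lower in control Apc Min than in WT (log2 change -0.76, SE 0.22, limma adjusted p = 0.00498) and lower in DM-aKG Apc Min than in WT (-0.87, SE 0.22, limma adjusted p = 0.00493). With the smooth muscle covariate the first was -0.34 (adjusted p = 0.423). Gstp1 and Gstp2 share 62.3% and 72.6% of their 50-base stretches with other genes, most with each other, so their levels are not separate measurements. Gstp2 changed by -0.84 in control Apc Min against WT (SE 0.25, limma adjusted p = 0.00671) and by -1.03 in DM-aKG Apc Min against WT (SE 0.26, limma adjusted p = 0.00415). Gstp3 shares no such stretch and was higher in both, by 0.83 (SE 0.12, limma adjusted p = 6.29e-06) and 0.55 (SE 0.12, limma adjusted p = 0.00156). None of the 3 was called with DM-aKG.

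Of the 3 theta-class GST genes, which act on small halogenated compounds, 2 were higher with DM-aKG and 3 were lower in control Apc Min than in WT libraries. Among all genes, 5.91% were higher in the first comparison and 15.7% were lower in the second. Gstt1 had 4.87, 10.1 and 11.4 RPKM in DM-aKG, 3.29, 5.65 and 7.23 RPKM in control Apc Min and 8.01, 10.3 and 13.9 RPKM in WT libraries. Control Apc Min and WT libraries did not overlap. Its log2 change was 0.70 with DM-aKG (SE 0.19, limma adjusted p = 0.00687) and -0.88 in control Apc Min against WT (SE 0.18, limma adjusted p = 0.000329). Gstt3 had 7.71, 12.6 and 13.6 RPKM in DM-aKG, 5.77, 8.52 and 11.8 RPKM in control Apc Min and 14.1, 15.6 and 18.6 RPKM in WT libraries. All WT libraries lay above both Apc Min groups. Gstt3 changed by 0.42 with DM-aKG (SE 0.15, limma adjusted p = 0.0351), by -0.87 in control Apc Min against WT (SE 0.14, limma adjusted p = 3.52e-05) and by -0.45 in DM-aKG Apc Min against WT (SE 0.15, limma adjusted p = 0.021). The call of Gstt3 with DM-aKG ended without DM-aKG replicate 1, 3, 4 or 6 or control replicate 3 or 5 (adjusted p up to 0.08), and that against WT ended without DM-aKG replicate 2 (0.0616). With the smooth muscle covariate the DM-aKG changes were 0.27 for Gstt1 (adjusted p = 0.386) and 0.06 for Gstt3 (adjusted p = 0.842), and the part of muscle in these results was not tested further. Gstt2 was not called with DM-aKG (0.24, SE 0.12, limma adjusted p = 0.123) and was lower in control Apc Min than in WT (-0.34, SE 0.11, limma adjusted p = 0.0154).

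Gsto1 and Gstk1 were not called in any comparison. Gsto1, a thioltransferase of the omega class and the most abundant GST member, had 176, 189 and 197 RPKM in DM-aKG, 141, 188 and 236 RPKM in control Apc Min and 164, 182 and 207 RPKM in WT libraries. Its log2 change was -0.01 with DM-aKG (SE 0.11, limma adjusted p = 0.964) and 0.04 in control Apc Min against WT (SE 0.10, limma adjusted p = 0.751). Gstk1, the kappa-class gene, had 2.85, 9.05 and 16.0 RPKM in DM-aKG, 3.47, 9.08 and 18.4 RPKM in control Apc Min and 9.84, 14.8 and 21.4 RPKM in WT libraries. The 2 Apc Min groups covered nearly the same range, with a log2 change of -0.15 between them (SE 0.35, limma adjusted p = 0.77) and of -0.72 in control Apc Min against WT (SE 0.33, limma adjusted p = 0.0712). Over the 19 GST members, 2 were higher and 4 lower with DM-aKG, beside 5.91% and 27.6% of all genes. The median log2 change of the GST members was -0.19, beside -0.14 for all genes. With median-of-ratios scaling these medians were -0.03 and -0.001. In that scaling 4 GST members were higher and 4 lower, beside 11% and 14.8% of all genes.

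**Figure D2:**
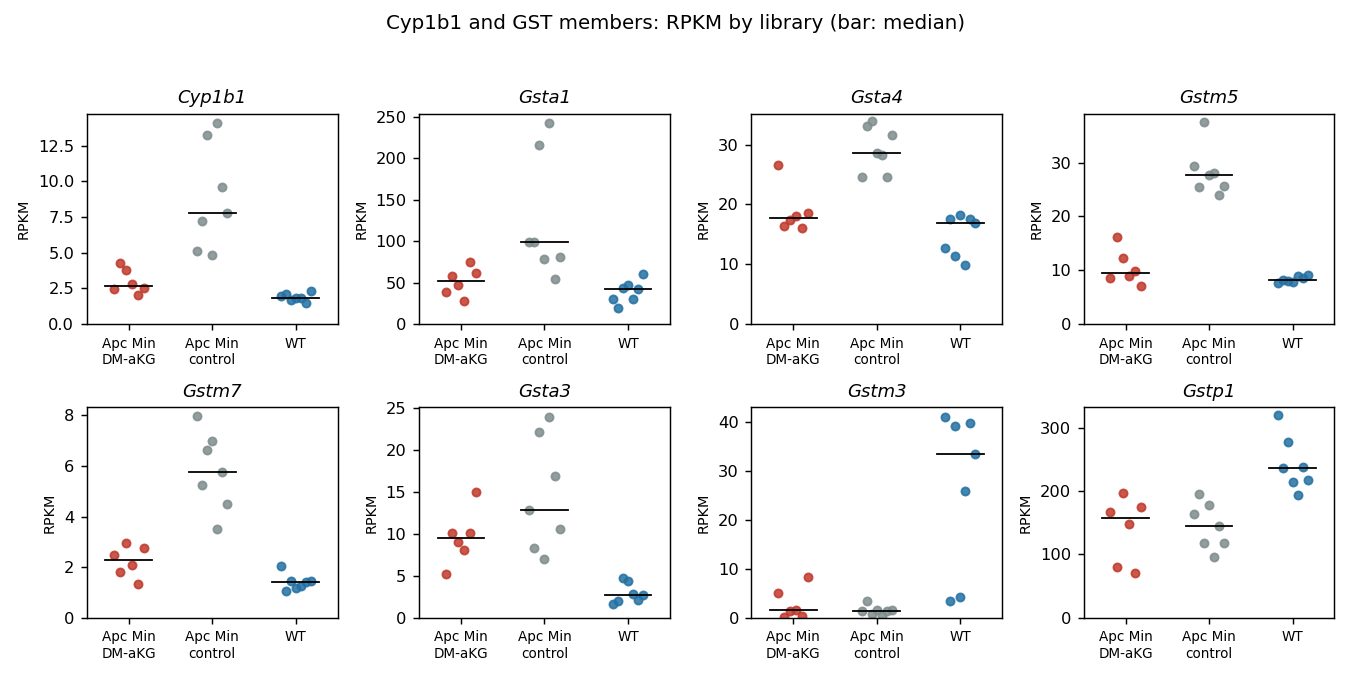
RPKM of Cyp1b1 and 7 GST genes in each library (1 point per library, bar at the group median, linear axes from 0) for DM-aKG, control Apc Min and WT. Gstm5 sits at 24.0 to 37.6 RPKM in control Apc Min libraries and at 16.2 RPKM or less elsewhere, whereas Gstm3 is high in WT libraries only where Lct is high.

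Of the P450, UGT, GST and SULT families, UGT had the largest share of higher members with DM-aKG, 5 of 8, and none was lower. Among all genes 5.91% were higher and 27.6% lower. By subfamily, 4 of 5 Ugt2, 1 of 3 Ugt1a and 2 of 3 Gstt members were higher. In control Apc Min against WT, 6 of 8 UGT genes were lower and none was higher, beside 15.7% and 43.2% of all genes. In DM-aKG Apc Min against WT none of the 8 was called in either direction, beside 21.9% higher and 17.3% lower among all genes. With DM-aKG, 5 were higher with median-of-ratios scaling and 6 with quantile normalization, and with both scalings 6 were lower in control Apc Min against WT. Of all genes, 11% and 14.1% were higher with DM-aKG in these scalings, and 27.3% and 26.9% were lower in control Apc Min against WT. Of 12 absorptive enterocyte markers, 5 were higher and 0 lower with DM-aKG, and 1 was higher and 6 were lower in control Apc Min than in WT libraries. Of 6 Paneth cell markers, 5 were higher and 1 was lower with DM-aKG. The part of these cell types in the UGT result was not tested. With the smooth muscle covariate none of the 8 was called with DM-aKG, and the median log2 change of the 8 was 0.65, beside 0.64 without it. That covariate left 1.76% of all genes higher and 18.7% lower. With replicates 1 to 4 alone 1 was called, and with replicates 5 to 7 alone 4, beside 3.25% and 3.06% higher among all genes.

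The summed level of the 8 UGT members averaged 239 ± 58.8 RPKM in DM-aKG, 158 ± 30.5 RPKM in control Apc Min and 271 ± 46.5 RPKM in WT libraries (SD, n = 6, 7 and 7). Ugt2b34 made up 61.6% of it. It had 97.0, 141 and 197 RPKM in DM-aKG, 76.2, 85.6 and 127 RPKM in control Apc Min and 130.4, 178 and 202 RPKM in WT libraries. All control Apc Min libraries lay below all WT libraries, and 5 of 6 DM-aKG libraries lay above the highest control library. Its mean was 142 ± 32.3 RPKM in DM-aKG libraries, 94.7 ± 18.3 RPKM in control Apc Min libraries and 174 ± 23.6 RPKM in WT libraries (SD, n = 6, 7 and 7). The log2 change was 0.57 with DM-aKG (SE 0.15, limma adjusted p = 0.00535), -0.88 in control Apc Min against WT (SE 0.14, limma adjusted p = 2.74e-05) and -0.31 in DM-aKG Apc Min against WT (SE 0.15, limma adjusted p = 0.0977). Ugt2b36 had 1.75, 4.10 and 7.13 RPKM in DM-aKG, 0.971, 1.91 and 3.60 RPKM in control Apc Min and 2.19, 3.32 and 4.25 RPKM in WT libraries. Its groups overlapped, and it changed by 0.78 with DM-aKG (SE 0.22, limma adjusted p = 0.00863) and by -0.57 in control Apc Min against WT (SE 0.21, limma adjusted p = 0.023). The call against WT ended without control replicate 3 or 5 (adjusted p up to 0.056).

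Ugt2b35, Ugt2b5 and Ugt1a7c were called with less margin. Ugt2b35 had 3.94, 4.94 and 5.45 RPKM in DM-aKG, 1.63, 3.14 and 5.15 RPKM in control Apc Min and 2.87, 5.44 and 7.17 RPKM in WT libraries. It changed by 0.51 with DM-aKG (SE 0.18, limma adjusted p = 0.0299), a call that ended without DM-aKG replicate 1, 4 or 5 or control replicate 1 or 4 (up to 0.0652). In Ugt2b5, 41.7% of the 50-base stretches occur in other genes. It had 1.35, 5.53 and 7.82 RPKM in DM-aKG, 0.514, 2.07 and 5.37 RPKM in control Apc Min and 2.45, 5.54 and 8.10 RPKM in WT libraries. Its change of 0.89 with DM-aKG (SE 0.33, limma adjusted p = 0.045) ended as a call without DM-aKG replicate 1, 3, 4 or 6, control replicate 1, 3, 4, 5 or 6, or WT replicate 2, 3, 5, 6 or 7 (up to 0.105). Ugt1a7c shares 69.3% of its stretches with other genes of the Ugt1a locus, whose transcripts have common last exons. It had 21.3, 23.8 and 36.6 RPKM in DM-aKG, 9.05, 16.0 and 25.9 RPKM in control Apc Min and 20.5, 33.8 and 38.1 RPKM in WT libraries. The change was 0.64 with DM-aKG (SE 0.21, limma adjusted p = 0.0227), not called without DM-aKG replicate 6 or control replicate 4 (up to 0.0634). In control Apc Min against WT the changes were -0.53 for Ugt2b35 (adjusted p = 0.0111), -1.02 for Ugt2b5 (adjusted p = 0.00983) and -0.90 for Ugt1a7c (adjusted p = 0.000757).

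Ugt1a1, the bilirubin-conjugating enzyme and most abundant Ugt1a member, had 33.7, 41.6 and 91.9 RPKM in DM-aKG, 13.7, 32.6 and 44.3 RPKM in control Apc Min and 17.5, 36.2 and 53.0 RPKM in WT libraries. All its groups overlapped, and 58.2% of its 50-base stretches occur in other genes. It changed by 0.64 with DM-aKG (SE 0.28, limma adjusted p = 0.0865) and was not called. Ugt1a6b was called in none of the comparisons. Ugt2a3 had 0.0878, 0.666 and 20.8 RPKM in DM-aKG, 0.155, 0.246 and 1.99 RPKM in control Apc Min and 0.107, 11.2 and 30.0 RPKM in WT libraries. It was lower in control Apc Min than in WT by a log2 change of -2.33 (SE 0.75, limma adjusted p = 0.0117). With Lct as a covariate this change was 0.08 (adjusted p = 0.668), and over libraries under 4 RPKM of Lct it was 0.43 (adjusted p = 0.395).

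The promoters of Ugt2b34, the most abundant UGT gene, and of Ugt2a3, which was high in the Lct-rich libraries, are shown. Both genes lie in the Ugt2 cluster on chromosome 5 and were chosen after seeing the data. The sequences (RefSeq, GRCm38.p6) run from 250 bases before to 50 after the start site, both on the minus strand. They lie at chr5:86906888-86907187 for Ugt2b34 and at chr5:87337146-87337445 for Ugt2a3. Capitals mark GTTAAT, a half-site of the hepatocyte nuclear factor HNF1, or its reverse complement.
Ugt2b34: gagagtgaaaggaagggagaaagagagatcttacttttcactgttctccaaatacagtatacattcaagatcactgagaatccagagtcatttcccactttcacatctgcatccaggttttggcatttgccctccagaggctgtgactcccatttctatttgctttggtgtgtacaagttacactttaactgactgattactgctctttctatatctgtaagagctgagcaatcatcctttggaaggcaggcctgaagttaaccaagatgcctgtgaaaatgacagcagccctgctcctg
Ugt2a3: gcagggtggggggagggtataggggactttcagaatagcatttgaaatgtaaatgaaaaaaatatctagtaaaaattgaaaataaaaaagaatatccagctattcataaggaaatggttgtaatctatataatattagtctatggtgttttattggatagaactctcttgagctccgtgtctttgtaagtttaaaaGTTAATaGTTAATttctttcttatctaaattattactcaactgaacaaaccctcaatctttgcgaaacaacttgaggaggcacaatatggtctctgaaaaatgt
Ugt2a3 holds 2 GTTAAT matches, at -54 and -47, and Ugt2b34 holds no match to any motif searched. The half-site is present in 7.1% of all promoters and in 7 of 55 promoters of members. Beside Ugt2a3, the members with it are Cyp2c68, Cyp2d26, Gsta3, Sult1a1, Sult1d1 and Ugt1a1. Cyp2b10 and Gstm3 hold none. The part of the half-site in the Lct pattern was not tested. CTTTGAT, the motif of the TCF factors that act in Wnt signalling, is present in 3.73% of all promoters and in 0 of 55 promoters of members. Both strands were searched, and the 2 matches in Ugt2a3 do not overlap with each other.

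**Figure D3:**
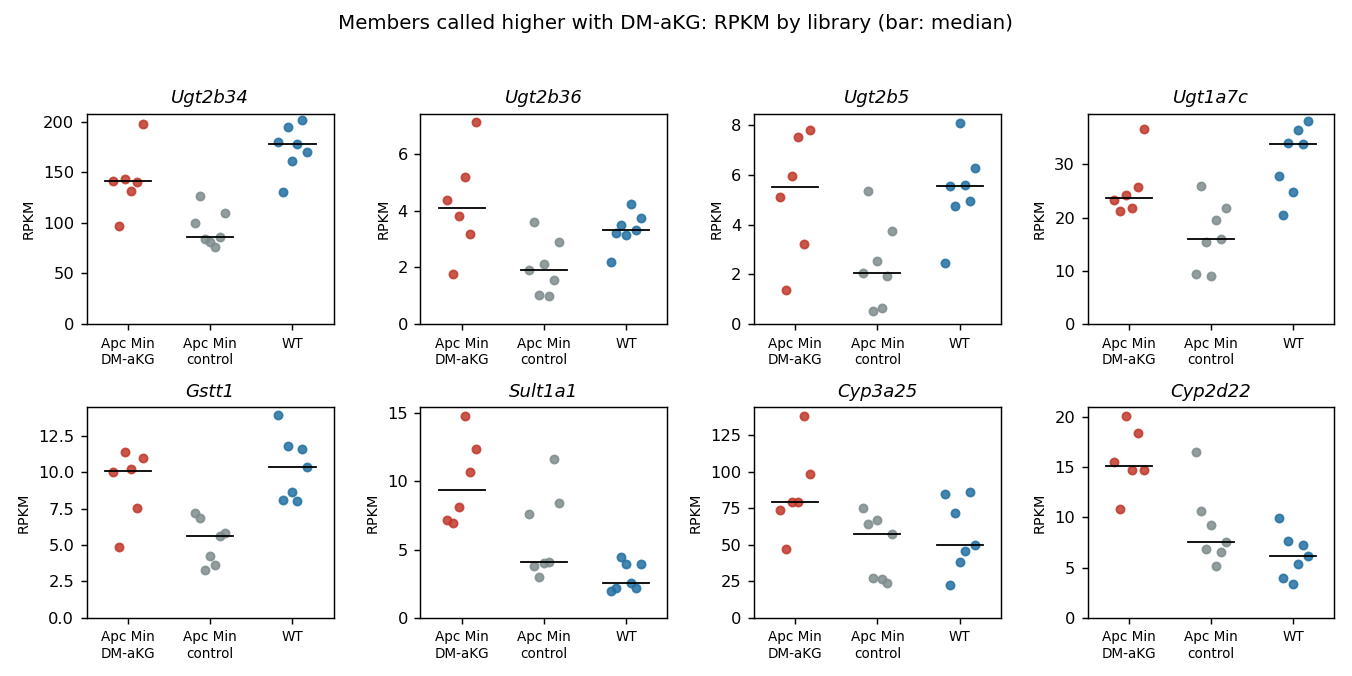
RPKM in each library of 8 genes called higher in DM-aKG than in control Apc Min libraries (1 point per library, bar at the group median, linear axes from 0). Ugt2b34 had a median of 141 RPKM in DM-aKG, 85.6 RPKM in control Apc Min and 178 RPKM in WT libraries. Cyp2d22, Sult1a1, Cyp3a25 and Ugt2b36 had their highest medians in DM-aKG libraries.

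Among the 6 SULT genes, Sult1a1 and Sult4a1 were higher with DM-aKG and none was lower. Among all genes, 5.91% were higher and 27.6% lower. Sult1a1 sulfates phenols. It had 6.95, 9.39 and 14.8 RPKM in DM-aKG, 2.97, 4.07 and 11.7 RPKM in control Apc Min and 1.95, 2.56 and 4.44 RPKM in WT libraries. Every DM-aKG library lay above every WT library, with the control Apc Min libraries between and overlapping with both. Its log2 change was 0.71 with DM-aKG (SE 0.25, limma adjusted p = 0.0343), 0.73 in control Apc Min against WT (SE 0.24, limma adjusted p = 0.013) and 1.44 in DM-aKG Apc Min against WT (SE 0.25, limma adjusted p = 0.000237). The call with DM-aKG ended without DM-aKG replicate 4, 5 or 6 or control replicate 2, 3, 4 or 5 (up to 0.0863). Sult4a1, a gene best known from brain, stood near the lower limit, with 0.693, 1.15 and 1.43 RPKM in DM-aKG, 0.569, 0.775 and 0.859 RPKM in control Apc Min and 0.745, 0.882 and 1.28 RPKM in WT libraries. It changed by 0.26 with DM-aKG (SE 0.09, limma adjusted p = 0.0264), which ended as a call without DM-aKG replicate 1 or 4 or control replicate 5 or 7 (up to 0.0712). Sult4a1 reached 1 RPKM in 0 control Apc Min libraries, so this call leans on the value rule.

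Sult1b1, which sulfates thyroid hormones, was low in Apc Min libraries. It had 40.7, 53.8 and 76.5 RPKM in DM-aKG, 18.2, 36.9 and 52.3 RPKM in control Apc Min and 64.7, 86.4 and 138 RPKM in WT libraries. No control Apc Min library reached the lowest WT library. The log2 change was -1.41 in control Apc Min against WT (SE 0.23, limma adjusted p = 2.66e-05), -0.81 in DM-aKG Apc Min against WT (SE 0.23, limma adjusted p = 0.0107) and 0.60 with DM-aKG (SE 0.23, limma adjusted p = 0.0529). Sult1d1, which sulfates catecholamines in mice, had 101, 169 and 335 RPKM in DM-aKG, 43.2, 89.4 and 211 RPKM in control Apc Min and 67.2, 82.7 and 105 RPKM in WT libraries. The spread within each Apc Min group was wide. It changed by 0.90 with DM-aKG (SE 0.35, limma adjusted p = 0.0514) and by 1.09 in DM-aKG Apc Min against WT (SE 0.35, limma adjusted p = 0.0176). The call against WT ended without DM-aKG replicate 2 or 5 (up to 0.0543). Sult2b1, which sulfates cholesterol, was lower in control Apc Min than in WT (-1.08, SE 0.22, limma adjusted p = 0.000282). Sult1c2 was not called in any comparison.

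Of the 14 Cyp2 and 4 Cyp3 members, 1 of each was higher and none was lower with DM-aKG. The higher ones were 7.14% of the Cyp2 and 25% of the Cyp3 members. Among all genes, 5.91% were higher, close to the Cyp2 share, and 27.6% were lower. Cyp2d22 had 10.8, 15.1 and 20.1 RPKM in DM-aKG, 5.16, 7.53 and 16.5 RPKM in control Apc Min and 3.33, 6.15 and 9.96 RPKM in WT libraries. All DM-aKG libraries lay above all WT libraries. It changed by 0.81 with DM-aKG (SE 0.23, limma adjusted p = 0.00927) and by 1.25 in DM-aKG Apc Min against WT (SE 0.23, limma adjusted p = 0.000333). With the smooth muscle covariate the DM-aKG change of Cyp2d22 was 0.50 (adjusted p = 0.234). Cyp3a25 had 47.0, 79.4 and 138 RPKM in DM-aKG, 24.0, 57.1 and 75.4 RPKM in control Apc Min and 22.5, 49.6 and 86.4 RPKM in WT libraries. Of its 50-base stretches, 26.8% occur in other genes. Its change of 0.88 with DM-aKG (SE 0.33, limma adjusted p = 0.0477) was not called without DM-aKG replicate 1, 3, 4, 5 or 6, control replicate 3, 5 or 6, or WT replicate 3, 4, 5 or 7 (up to 0.121). Cyp3a13, the most abundant member, had 189.5, 254 and 288 RPKM in DM-aKG, 91.2, 179 and 336 RPKM in control Apc Min and 86.0, 152 and 278 RPKM in WT libraries. Its wide control range covered the DM-aKG libraries, and its change was 0.41 (SE 0.27, limma adjusted p = 0.256).

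Cyp2d26, the most abundant Cyp2 gene, had 98.5, 109.8 and 131 RPKM in DM-aKG, 25.0, 90.6 and 130.1 RPKM in control Apc Min and 31.3, 62.4 and 123 RPKM in WT libraries. All groups overlapped, and the DM-aKG libraries were close together at the upper end, with replicate 5 above every control Apc Min library and replicates 1 and 5 above every WT library. The change was 0.63 with DM-aKG (SE 0.33, limma adjusted p = 0.143) and 0.96 in DM-aKG Apc Min against WT (SE 0.33, limma adjusted p = 0.0253), a call lost when DM-aKG replicate 5, WT replicate 2 or WT replicate 4 was left out (up to 0.0564). Cyp2j6, an arachidonic acid epoxygenase of the gut, had 22.3, 41.8 and 87.5 RPKM in DM-aKG, 22.1, 42.5 and 75.8 RPKM in control Apc Min and 14.6, 19.4 and 28.6 RPKM in WT libraries. Both Apc Min groups were higher than WT, by 1.04 for DM-aKG (SE 0.27, limma adjusted p = 0.00522) and 1.14 for control Apc Min (SE 0.26, limma adjusted p = 0.000894). Cyp2u1, a fatty acid hydroxylase, was lower than WT in both, by -0.64 for DM-aKG (SE 0.22, limma adjusted p = 0.0279) and -1.05 for control Apc Min (SE 0.21, limma adjusted p = 0.00031). The first of these was lost when any of DM-aKG replicates 2, 3 and 5 or WT replicates 3 and 5 was left out (up to 0.0752).

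Cyp2d9, a testosterone hydroxylase known from male mouse liver, was listed at 0.0927, 4.36 and 9.42 RPKM in DM-aKG libraries and at 0.486, 1.08 and 21.0 RPKM in control Apc Min libraries. In WT libraries its median was 0.0338 RPKM and its highest value 0.124 RPKM. The change on the log2(RPKM + 1) scale was 1.82 in control Apc Min against WT (SE 0.57, limma adjusted p = 0.0106) and 2.04 in DM-aKG Apc Min against WT (SE 0.60, limma adjusted p = 0.0115). Cyp2d40 was also higher in both, by 0.77 (SE 0.25, limma adjusted p = 0.0118) and 0.93 (SE 0.26, limma adjusted p = 0.00849). Cyp2d9 and Cyp2d40 reached 1 RPKM in 0 WT libraries, so these calls lean on the value rule that selected the members. Both count among the 11 members called higher in each comparison with WT. Of 50-base stretches, 29% in Cyp2d9 and 15.3% in Cyp2d40 occur in other genes, so reads may be split between copies. Among hepatocyte markers, Alb was 0.0360 to 17.0 RPKM in DM-aKG, 19.4 to 64.1 RPKM in control Apc Min and 0 to 2.29 RPKM in WT libraries, and of 7 such genes 3 passed the filter. Ttr was higher than WT in both Apc Min groups, by 1.93 for DM-aKG (limma adjusted p = 0.00755) and by 2.22 for control Apc Min (limma adjusted p = 0.000924). Cps1, which the intestine also expresses, was lower in control Apc Min than in WT (-1.91, limma adjusted p = 0.0026). Apoh, Fga, Hpx and Serpina1a stayed under 0.5 RPKM in the 13 Apc Min libraries. The part of liver-like RNA in the Cyp2d9 result was not tested.

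Cyp2b10, the classic target of the receptor CAR, and Cyp3a11, the classic target of PXR, were called in no comparison. Their values are given beside Lct, with those of Ugt2a3. In DM-aKG replicate 6, Cyp2b10 stood at 49.1 RPKM, while the remaining 5 libraries with DM-aKG held 1.85 to 7.30 RPKM. Ugt2a3 stood at 20.8 RPKM in that library and at 0.0878 to 1.46 RPKM in the remaining 5. In WT replicates 2 and 4, the WT libraries low in Lct, Cyp2b10 had 0.0944 and 0.221 RPKM and Ugt2a3 0.218 and 0.107 RPKM. The other WT libraries had 5.35 to 98.9 RPKM of Cyp2b10 and 7.87 to 30.0 RPKM of Ugt2a3. Cyp3a11 stood at 213 RPKM in DM-aKG replicate 6, but libraries low in Lct also held much of it, with 121 RPKM in DM-aKG replicate 2 and 142 RPKM in control Apc Min replicate 4. WT replicates 2 and 4 had 11.9 and 18.05 RPKM of Cyp3a11, and the Lct-rich WT libraries 69.6 to 151 RPKM. Gstm3, at 25.9 RPKM or more in the Lct-rich WT libraries, was at 8.34 RPKM in DM-aKG replicate 6. The labels do not give the segment of intestine. Lct alone does not settle which libraries hold proximal gut. Gata4, another proximal gene, was at most 5.94 RPKM in libraries low in Lct and higher in every Lct-rich one. Yet Fabp6 of the ileum was at 2838 to 4696 RPKM in Lct-rich WT replicates 3, 5, 6 and 7. It was at 2984 RPKM in DM-aKG replicate 6 and at 158 RPKM in WT replicate 1. Of 6 proximal genes tested, 2 were higher and 2 lower in control Apc Min against WT, and 0 and 2 with DM-aKG. The level of Lct cannot be told apart from the group in most Apc Min libraries, of which 12 of 13 were low in Lct. Over libraries under 4 RPKM of Lct, chosen after seeing the data, 10 members were higher and 5 lower in control Apc Min than in WT, beside 23.3% and 8.35% of all genes.

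**Figure D4:**
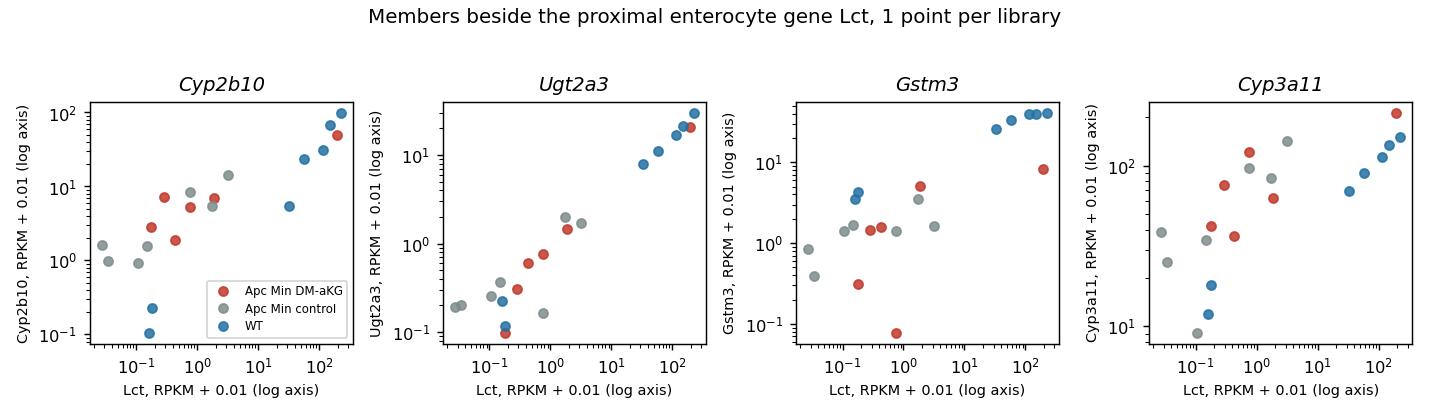
Cyp2b10, Ugt2a3, Gstm3 and Cyp3a11 against Lct, 1 point per library, both axes log-scaled RPKM + 0.01, coloured by group. Lct-rich libraries are DM-aKG replicate 6 and 5 WT libraries, and Ugt2a3 was 20.8 RPKM in the first and 7.87 to 30.0 RPKM in the others.

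Within all 3 groups, Rn45s, the ribosomal RNA precursor, was higher in each of replicates 1 to 4 than in any of 5 to 7. It was at 4857 to 5512 RPKM against 1585 and 2090 RPKM in DM-aKG libraries. In WT libraries it was at 3839 to 6558 RPKM against 2716 to 3006 RPKM. The gap was narrow in control Apc Min libraries, at 3836 to 5458 RPKM against 1078 to 3621 RPKM. The labels name no batch, and the change with DM-aKG was also taken in each set. Replicates 1 to 4 gave 2 higher and 6 lower members, and replicates 5 to 7, with 2 DM-aKG libraries, gave 11 higher and 3 lower. Of all genes, 3.25% were higher and 14.6% lower in the first set, and 3.06% and 22.4% in the second. The difference between the sets was tested as an interaction in limma: 0 of 52 members were called, the smallest adjusted p was 0.365 for Gsto1, and 8 members had an unadjusted p under 0.05. Of all genes, 26 of 12433 were called in that test. Gstm5 changed by -1.34 in the first set (adjusted p = 0.000495) and by -1.52 in the second (adjusted p = 0.0007). Ugt2b34 changed by 0.39 (adjusted p = 0.155) and 0.89 (adjusted p = 0.0198).

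**Figure D5:**
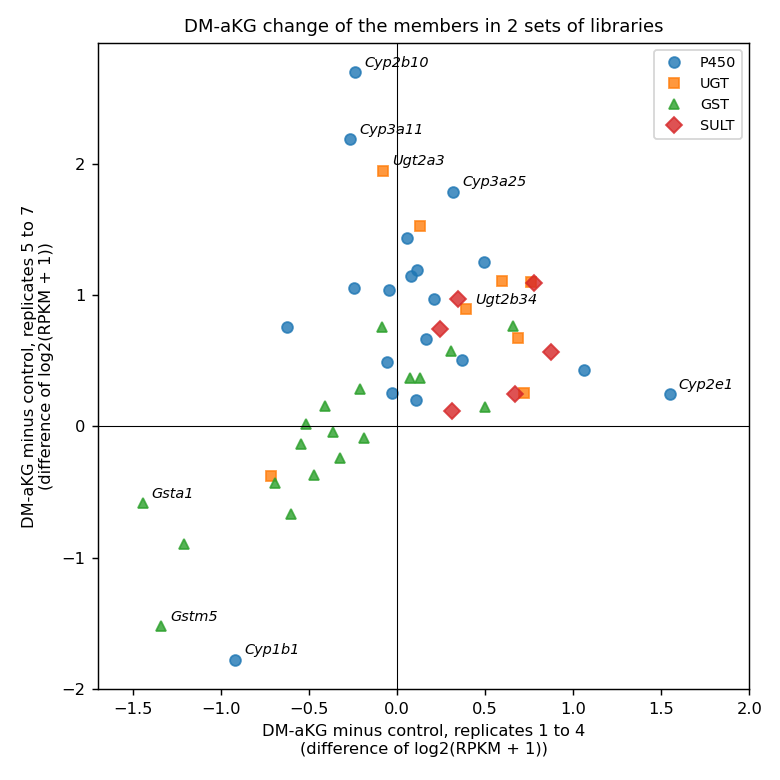
Difference of log2(RPKM + 1) between DM-aKG and control Apc Min libraries for the 52 members in replicates 1 to 4 (x axis) and in replicates 5 to 7 (y axis), with symbols by family. Cyp1b1, Gstm5 and Gsta1 lie below 0 in both sets, and Cyp2b10, Cyp3a11 and Ugt2a3 lie at -0.24, -0.27 and -0.08 in the first set and at 2.70, 2.19 and 1.95 in the second, which includes DM-aKG replicate 6.

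Regulators, cofactor enzymes and transporters around these families were taken from listed genes, and their counts stand beside 5.91% higher and 27.6% lower among all genes. Of 12 receptors and AhR pathway genes tested, 3 were higher and 2 lower with DM-aKG. Ahr averaged 2.89 ± 0.471 RPKM in DM-aKG and 4.82 ± 1.16 RPKM in control Apc Min libraries (SD, n = 6 and 7; log2 change -0.56, limma adjusted p = 0.00522). Nr1i2, which encodes PXR, averaged 30.4 ± 9.03 RPKM in DM-aKG and 20.1 ± 4.46 RPKM in control Apc Min libraries (0.56, limma adjusted p = 0.00714). Ppara averaged 29.6 ± 13.4 RPKM in DM-aKG, 15.3 ± 6.46 RPKM in control Apc Min and 5.45 ± 0.937 RPKM in WT libraries (0.96 with DM-aKG, limma adjusted p = 0.0144).

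Of 13 cofactor genes, 1 was higher and 3 were lower with DM-aKG, close to the shares among all genes. Papss2, which makes the sulfate donor of SULT enzymes, changed by -0.50 (limma adjusted p = 0.0045). Slc35b2, which carries that donor into the Golgi, changed by -0.38 (limma adjusted p = 0.00459), and Gss, a glutathione synthesis enzyme, by -0.43 (limma adjusted p = 0.0129). Of 9 transporters tested, 3 were higher and 2 lower. The 2 lower ones were exporters of conjugates: Abcc4 averaged 2.48 ± 1.10 RPKM in DM-aKG, 8.49 ± 1.89 RPKM in control Apc Min and 1.22 ± 0.284 RPKM in WT libraries, and Abcc1 averaged 2.61 ± 1.08, 5.91 ± 1.16 and 1.82 ± 0.216 RPKM in the same order. Their log2 changes with DM-aKG were -1.47 (limma adjusted p = 1.62e-06) and -0.96 (limma adjusted p = 5.32e-05). Slco2b1, an uptake transporter, changed by 0.64 (limma adjusted p = 0.00689). Of 32 other drug-metabolizing enzymes tested, 7 were higher and 4 lower. Akr1b8, an aldo-keto reductase, averaged 5.81 ± 4.43 RPKM in DM-aKG, 20.5 ± 4.26 RPKM in control Apc Min and 2.64 ± 0.880 RPKM in WT libraries (-1.85 with DM-aKG, limma adjusted p = 3.5e-05). Fmo4, a flavin monooxygenase, changed by 0.75 (limma adjusted p = 0.00202).

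The remaining members, Cyp2c55, Cyp2c65, Cyp2c66, Cyp2c68, Cyp2e1, Cyp2j9, Cyp2s1 and Cyp3a44, were called in none of the 3 comparisons. Their changes with DM-aKG lay between 0.10 for Cyp2s1 and 0.93 for Cyp2e1. Cyp2e1, the ethanol-oxidizing P450, ranged over 9.91 to 125 RPKM in DM-aKG, 5.71 to 118 RPKM in control Apc Min and 0.236 to 71.5 RPKM in WT libraries. At the limit of the selection, Cyp2c66 and Sult4a1 reached 1 RPKM in 6 libraries and were kept, and Ugt1a6a reached it in 5 and was not. The highest value among the 70 rows left out was 2.92 RPKM, for Cyp2d34. Of the 52 members, 35 share at least 1 stretch of 50 bases with another gene, and 19 share 10% or more of their stretches.

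The matching rows that were not kept for their low values were, among P450 genes, Cyp1a1, Cyp1a2, Cyp2a12, Cyp2a22, Cyp2a4, Cyp2a5, Cyp2b13, Cyp2b19, Cyp2b23, Cyp2b9, Cyp2c23, Cyp2c29, Cyp2c37, Cyp2c38, Cyp2c39, Cyp2c40, Cyp2c50, Cyp2c53-ps, Cyp2c54, Cyp2c67, Cyp2c69, Cyp2c70, Cyp2d10, Cyp2d11, Cyp2d12, Cyp2d13, Cyp2d34, Cyp2d37-ps, Cyp2f2, Cyp2g1, Cyp2j11, Cyp2j12, Cyp2j13, Cyp2j5, Cyp2j8, Cyp2r1, Cyp2t4, Cyp2w1, Cyp3a16, Cyp3a41a, Cyp3a41b, Cyp3a57 and Cyp3a59. Among UGT genes they were Ugt1a10, Ugt1a2, Ugt1a5, Ugt1a6a, Ugt1a9, Ugt2a1, Ugt2a2, Ugt2b1, Ugt2b37 and Ugt2b38. Among GST genes they were Gsto2 and Gstt4, and among SULT genes they were Sult1c1, Sult1e1, Sult2a1, Sult2a2, Sult2a3, Sult2a4, Sult2a5, Sult2a6, Sult2a7, Sult2a8, Sult3a1, Sult3a2, Sult5a1, Sult6b1 and Sult6b2.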

How the data were processed

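The authors deposited 1 table of RPKM values for 24795 genes and 20 libraries. The unit was inferred from the values (not whole, with sums that differ between libraries). The submitters' processing notes name CASAVA 1.8, HISAT2 2.0.4, Partek and mm10, without roles. No source used here gives the annotation, the counting or the use of strand. The read depth is unknown, so no counting interval is given. RPKM corrects for length and total but not for shifts of composition.

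The members and gene lists were chosen with earlier results of these data known. The 12433 genes that reached 1 RPKM in 6 or more libraries were tested on log2(RPKM + 1), which understates changes of low genes, with limma 3.58.1 (trend and robust options, R 4.3.3), 3 groups in 1 fit, and Benjamini-Hochberg adjustment over all genes tested. Full values are given for members called with DM-aKG, for the 12 largest called changes against WT and for the most abundant member of each family. Sequence shared between genes was counted as 50-base stretches in GENCODE M21 transcripts. The code was tested on simulated data. Alternatives covered scaling, filters, pseudocount, replicate block, covariates, replicate sets and leaving out each library.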

Additional observations from a re-analysis of the deposited data

Results flagged for a closer look

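Among the 30 members given with full values, the libraries of each of 3 groups were searched for 1 library far from the rest of its group by Dixon's test. Of 90 such groups 5 were flagged, and chance alone flags about 1 in 20.

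Ugt2a3 reached 20.8 RPKM in DM-aKG replicate 6, while the others with DM-aKG held 0.0878 to 1.46 RPKM. Ugt1a7c reached 36.6 RPKM in the same library, against 21.3 to 25.8 RPKM in the others, and this is the DM-aKG library that is high in Lct. Gsta4 reached 26.6 RPKM in DM-aKG replicate 1, while the others with DM-aKG held 16.0 to 18.6 RPKM. Gstm7 reached 2.06 RPKM in WT replicate 1, against 1.07 to 1.44 RPKM in the other WT libraries. Cyp2d9 was 0.124 RPKM in WT replicate 6 and at most 0.0469 RPKM in the other WT libraries, all of them far below the level of most Apc Min libraries.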

How the results depend on the processing

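In DM-aKG against control, 16 members were called: 25 with quantile normalization (20 higher), 6 with the smooth muscle covariate (1 higher) and 8 with replicates 1 to 4 alone (2 higher). The higher members numbered 6 with only the 2 groups in the fit and 5 over libraries under 4 RPKM of Lct, and the lower ones 3 with replicates 5 to 7 alone. Among all genes, quantile normalization called 14.1% higher and 14.9% lower, and the smooth muscle covariate 1.76% and 18.7%. Replicates 1 to 4 alone called 3.25% and 14.6%, and replicates 5 to 7 alone 3.06% and 22.4%. The 2-group fit called 4.41% and 22.9%, and the low-Lct libraries 4.21% and 20.7%. Leaving out 1 library at a time gave 6 to 14 higher, 5 to 6 lower and 11 to 19 in all.

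In control Apc Min against WT, 26 were called, and 13 with the smooth muscle covariate (7 higher, 6 lower) and 15 over low-Lct libraries (5 lower). Replicates 5 to 7 alone gave 7 higher, and leaving out 1 library gave 25 to 28 in all. The shares of all genes fell as well, from 43.2% higher and 15.7% lower. They were 23.7% and 4.75% with the covariate, 23.3% and 8.35% over low-Lct libraries, and 30.1% and 9.18% with replicates 5 to 7. In DM-aKG Apc Min against WT, 18 were called, and 4 with replicates 5 to 7 alone (3 higher, 1 lower) and 6 over low-Lct libraries (6 higher, 0 lower). The Lct covariate gave 3 lower. Here too the shares of all genes fell, from 21.9% higher and 17.3% lower. They were 1.59% and 2.81% with replicates 5 to 7, 5.61% and 6.18% over low-Lct libraries, and 13.3% and 12.5% with the Lct covariate. Leaving out 1 library gave 8 to 13 higher, 4 to 10 lower and 13 to 23 in all.

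With the Lct covariate the log2 change in control Apc Min against WT turned to 1.27 for Cyp2b10, 1.19 for Cyp3a11, -0.62 for Sult1c2 and 0.0827 for Ugt2a3 (0.43 over low-Lct libraries), and that of Cyp2b10 in DM-aKG Apc Min against WT to 1.36. Both Lct alternatives were chosen after seeing the data, and the cause of these changes was not tested. With a replicate block, 12 members were higher and 7 lower with DM-aKG, 11 and 15 in control Apc Min against WT, and 11 and 8 in DM-aKG Apc Min against WT. Of all genes, it called 6.1% and 29%, 45.6% and 16.8%, and 25.3% and 18.8% in the same order. Same-numbered libraries did not deviate together throughout. Their r ran from -0.46 to 0.60 in DM-aKG against control, and from -0.30 to 0.51 in control Apc Min against WT. In DM-aKG Apc Min against WT it ran from -0.05 to 0.15. The best match was the own number for replicate 5 in the first comparison and replicate 1 in the second. Whether the numbers pair libraries is not known, and the main fit did not pair them. Low members are limited by an unknown read depth.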
